A study of Mus musculus with 14 samples.

Results

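The RNA of 9 chromatin genes was followed in mouse B cells: Crebbp, Ep300, Kmt2d, Kmt2c, Kdm6a, Kdm6b, Hdac3, Ncor1 and Kdm1a. They are the enhancer acetylases and methylases that are often mutated in B-cell lymphoma, with enzymes and cofactors that assist or oppose them, and were chosen by gene name. All 9 were found among the 41053 gene rows of both count tables, and all 9 passed the filter on low counts in every comparison. The study measured RNA from spleen cells of C57BL/6 mice that were labelled Tet2 knockout (KO), Tet2 wild type (WT) or Tet2 knockdown. There were 4 KO and 3 WT libraries of germinal center (GC) B cells, and 2 libraries of lymphoma B cells with a hairpin against Tet2 (shTet2) and 5 control lymphoma libraries, which carry a Tet2 wild-type label. The TET2 protein starts the removal of methyl marks from cytosines in DNA. The age of the mice, the Cre or promoter behind the knockout, the deleted part of Tet2, the purification of the GC B cells, the origin of the lymphoma and the clone behind it are among the points not given in the sources used here. No label says that the replicates came from separate animals, so the p-values cover the spread over libraries, which may be technical.

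CREBBP and EP300 acetylate histone H3 at enhancers, while KMT2D and KMT2C place a single methyl group on lysine 4 of histone H3 there, and both marks go with active enhancers. KDM6A sits in the KMT2C and KMT2D complexes and removes methyl groups from lysine 27 of histone H3, as does KDM6B. HDAC3 is the deacetylase that NCOR1 activates, and BCL6, the master repressor of the GC reaction, recruits this complex to enhancers that CREBBP acetylates. KDM1A removes methyl groups from lysine 4 of histone H3. In follicular and diffuse large B-cell lymphoma, CREBBP, EP300 and KMT2D are recurrently inactivated by mutation.

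Crebbp, Kmt2d and Kmt2c are 3 of the 7 genes that were highest and lowest in the same KO libraries. The sequences before their starts are shown with that of the opposing Kdm1a, which was not among those 7. Each is the 250 bases before the first base of the RefSeq transcript on GRCm38.p6, written along the gene's own strand, with each CG dinucleotide, the target of DNA methylation, in capitals.

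Crebbp: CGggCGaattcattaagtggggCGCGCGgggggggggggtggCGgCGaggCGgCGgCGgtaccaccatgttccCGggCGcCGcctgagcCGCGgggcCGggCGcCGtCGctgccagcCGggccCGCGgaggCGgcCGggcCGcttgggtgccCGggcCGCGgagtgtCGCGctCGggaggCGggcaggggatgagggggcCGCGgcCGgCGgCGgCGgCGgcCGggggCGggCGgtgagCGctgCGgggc

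Kmt2d: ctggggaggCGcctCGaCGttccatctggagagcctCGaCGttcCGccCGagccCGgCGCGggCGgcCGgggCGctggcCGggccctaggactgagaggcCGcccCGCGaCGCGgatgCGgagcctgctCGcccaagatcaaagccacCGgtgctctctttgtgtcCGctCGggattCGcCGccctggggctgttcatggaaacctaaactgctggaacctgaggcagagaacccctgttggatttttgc

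Kmt2c: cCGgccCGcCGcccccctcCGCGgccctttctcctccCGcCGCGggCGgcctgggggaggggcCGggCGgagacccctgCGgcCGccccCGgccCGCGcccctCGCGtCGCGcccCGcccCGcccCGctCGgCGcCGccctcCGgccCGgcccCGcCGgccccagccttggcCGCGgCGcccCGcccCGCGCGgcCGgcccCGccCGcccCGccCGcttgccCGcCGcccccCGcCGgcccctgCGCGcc

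Kdm1a: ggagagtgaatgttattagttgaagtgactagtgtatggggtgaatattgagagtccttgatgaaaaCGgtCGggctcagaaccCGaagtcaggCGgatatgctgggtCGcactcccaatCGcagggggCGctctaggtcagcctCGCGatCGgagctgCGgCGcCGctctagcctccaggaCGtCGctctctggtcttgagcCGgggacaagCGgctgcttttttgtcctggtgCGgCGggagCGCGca

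The windows lie at chr16:4213405-4213654, chr15:98871206-98871455, chr5:25498784-25499033 and chr4:136602724-136602973, all on the minus strand. They hold 44 CG dinucleotides for Crebbp, 26 for Kmt2d, 48 for Kmt2c and 21 for Kdm1a, against a median of 6 and an upper quartile of 16 over the 32851 windows of this length in the same RefSeq table. Of the 9 genes, 7 had an entry there. In windows of Ep300 and Kdm6a, 25 and 15 CG dinucleotides were counted, and Ncor1, which has 2 starts, had 2 and 34. The window of Ep300 (chr15:81585964-81586213) lies within the gene bounds of the deposited tables, given below. So do those of Ncor1 (chr11:62438516-62438765 and chr11:62457333-62457582). Their counts are thus not of sequence upstream of the whole gene. Of the motifs searched on both strands, TGACGTCA, the element bound by CREB, for which CREBBP is named, was in none of the windows of these 7 genes, and 1.55% of all windows held it. GGGCGG, a core of Sp1-type sites, was in the windows of Crebbp, Ep300, Kmt2d, Kmt2c, Kdm6a and 1 of the 2 of Ncor1, against 32.7% of all windows. CCAAT was found for Kdm1a alone of the 7 genes, with a share of 33.8%, and CACGTG for Kdm6a alone, with a share of 6.02%. DNA methylation was not measured in these libraries.

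On GRCm38, as the deposited tables give them, Crebbp lies at chr16:4081328-4213407 and Ep300 at chr15:81585351-81652072, with 12.9 and 13.9 kb of exon. Kmt2d lies at chr15:98831669-98871204 and Kmt2c at chr5:25271798-25498783, with 19.8 and 20.3 kb of exon, the longest of the 9. Kdm6a lies at chrX:18162575-18279936 (8.16 kb of exon), Kdm6b at chr11:69398508-69413675 (6.95 kb), Ncor1 at chr11:62316426-62458541 (12.8 kb) and Kdm1a at chr4:136550540-136602723 (5.18 kb), and Hdac3 is on chromosome 18 (4.03 kb). The counts sum all exons of a gene, UTRs included.

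Total counts were 27191862 to 30434184 in GC B-cell libraries and 6691167 to 18598386 in lymphoma libraries. A list of 22 rows of ribosomal and other abundant structural RNA, of which 13 are in the tables, took 0.350 to 1.22% of the counts in GC B cells, 54.0 to 74.2% in control lymphoma and 42.6 to 51.2% in shTet2 lymphoma, so that 2034213 to 7199435 counts lay outside it in lymphoma libraries. Levels are given as CPM, the counts of a gene scaled to a library size shared by all libraries, here within each table unless a common scale is named. The Tet2 row, summed over all its exons, stood at 13.4, 11.8 and 14.3 CPM in the WT libraries and at 11.9, 14.6, 13.3 and 14.5 CPM in those labelled KO, so it did not check the knockout label. It stood at 57.5 to 68.0 CPM in controls and at 54.9 and 50.7 CPM in shTet2 lymphoma, below every control (log2 -0.21, adjusted p = 0.295). KO, WT, shTet2 and control below are the labels' names. No B-cell marker was at 0 in any group. The 8 GC B-cell markers in the tables summed to 1255 to 1527 CPM in WT and 1409 to 1513 CPM in KO on a scale common to the 14 libraries, but to 178 to 229 CPM in control and 289 to 353 CPM in shTet2 lymphoma.

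Per kilobase of exon, the opposing enzymes were the most abundant of the 9 genes in GC B cells. Hdac3 led in WT with 36.3 ± 2.27 CPM per kb (SD, n = 3), followed by Kdm1a at 26.4 ± 0.744 and Ncor1 at 18.3 ± 2.25. Kdm6a at 10.6 ± 1.62, Ep300 at 10.02 ± 0.848 and Kmt2d at 9.95 ± 0.627 CPM per kb did not differ from one another beyond their SDs. Crebbp followed at 5.38 ± 0.123 CPM per kb, and Kmt2c at 3.81 ± 0.636 and Kdm6b at 3.64 ± 0.208 CPM per kb were last and not apart. In KO the order changed only among Ep300, Kmt2d and Kdm6a, whose levels were again within their SDs.

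In control lymphoma the acetylases stood first and the deacetylase last. Ep300 at 18.1 ± 1.90 CPM per kb (SD, n = 5), Crebbp at 18.1 ± 1.34, Ncor1 at 16.7 ± 0.908 and Kmt2d at 16.1 ± 1.47 formed a group in which no neighbours differed beyond their SDs. Kmt2c stood at 13.2 ± 0.672 and Kdm6a at 10.6 ± 0.186 CPM per kb. Kdm6b at 5.74 ± 0.618 and Kdm1a at 5.61 ± 0.455 CPM per kb were not apart, and Hdac3 was last at 3.22 ± 0.124. In shTet2 lymphoma Kdm6b was last instead, at 2.99 ± 0.915 CPM per kb (n = 2), below Hdac3 at 4.36 ± 0.430. The plot of levels by library shows the 9 genes in all 14 libraries on the common scale.

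**Figure D1:**
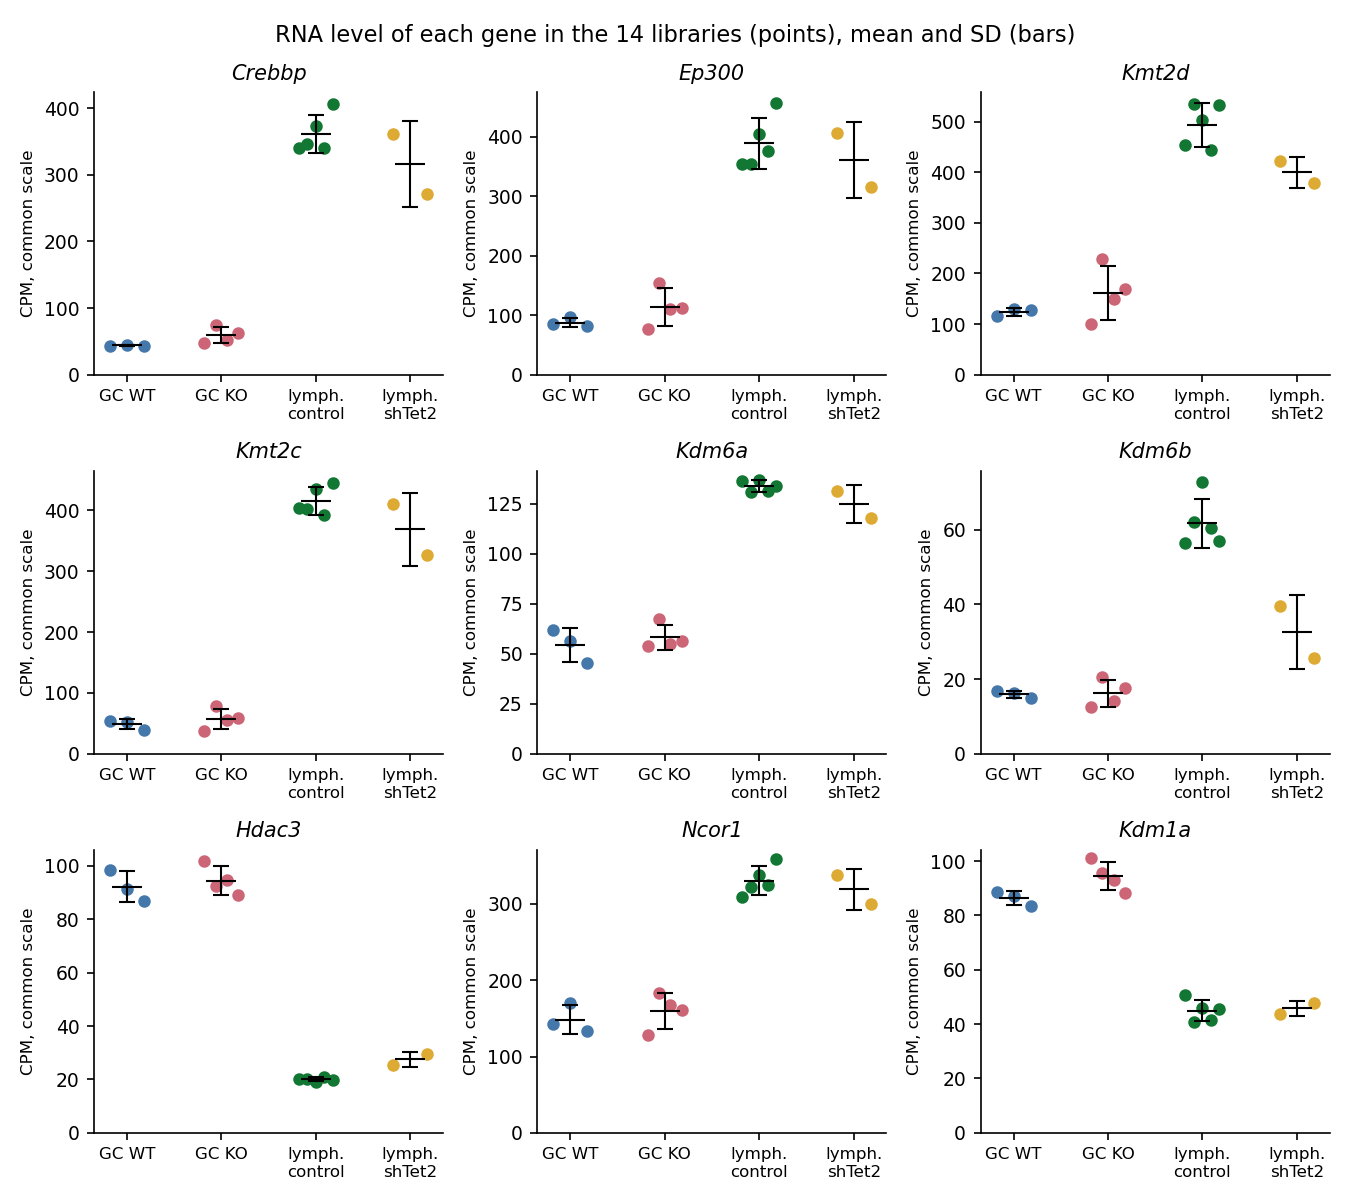
Level of each of the 9 genes in the 14 libraries (points), in CPM on the scale common to both tables, with the mean and SD of each group (bars). Groups are WT and KO germinal center (GC) B cells and control and shTet2 lymphoma B cells, and each panel has its own axis from 0. The 5 control lymphoma libraries lie above the GC libraries for 7 genes and below them for Hdac3 and Kdm1a. The share of all genes that lie apart in this way is not given.

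None of the 9 genes passed the test between KO and WT GC B cells, and the estimates for both acetylases were above 0. The threshold was an adjusted p under 0.05 in edgeR's quasi-likelihood test, which called 883 of 13600 genes, a share of 6.49% (1.92% higher and 4.57% lower). Crebbp stood at 69.5, 71.2 and 68.0 CPM in WT and at 73.5, 114, 80.5 and 96.8 CPM in KO. The groups did not overlap, and KO replicate 2 was the lowest and KO replicate 3 the highest of the KO libraries. The share of all genes without overlap between KO and WT is not given. The log2 fold change of Crebbp was 0.39 (SE 0.13, adjusted p = 0.0885), and at an unadjusted p of 0.00856 it was the only 1 of the 9 under 0.05. DESeq2 called Crebbp alone of the 9 (adjusted p = 0.0429), and limma-voom called 0. Over all genes, DESeq2 called 1266 and limma-voom 793. Without KO replicate 2, edgeR called 944 genes in all and 3 of the 9: Crebbp at 0.48 (adjusted p = 0.0157), Ep300 at 0.47 (adjusted p = 0.0346) and Kmt2d at 0.51 (adjusted p = 0.0397). Each of the other 6 fits with 1 library left out called 0 of the 9.

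Ep300, the closest relative of Crebbp, stood at 135, 152 and 130 CPM in WT and at 118, 237, 169 and 172 CPM in KO. The lowest KO library, replicate 2, was below all WT libraries and the other 3 were above them. The log2 fold change of Ep300 was 0.32 (SE 0.21, adjusted p = 0.467). The level of Crebbp per length was 0.539 ± 0.0327 of that of Ep300 in WT (SD, n = 3) and 0.576 ± 0.0755 in KO (SD, n = 4), ratios that overlapped.

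Neither methylase passed. Kmt2d stood at 183, 205 and 204 CPM in WT and at 151, 350, 229 and 261 CPM in KO. As for Ep300, 1 KO library was below the WT range and 3 were above it, and the log2 estimate was 0.33 (SE 0.27, adjusted p = 0.587). Kmt2c, its paralog, stood at 86.7, 82.4 and 62.6 CPM in WT and at 58.0, 119, 85.9 and 90.3 CPM in KO. The groups overlapped and the log2 estimate was 0.19 (SE 0.24, adjusted p = 0.74).

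The demethylases that assist them gave estimates near 0. Kdm6a, on the X chromosome, stood at 97.9, 88.9 and 71.9 CPM in WT and at 82.3, 103, 83.8 and 86.8 CPM in KO. The groups overlapped, with an estimate of 0.05 on the log2 scale (SE 0.11, adjusted p = 0.876). Kdm6b stood at 26.6, 25.6 and 23.7 CPM in WT and at 19.0, 31.6, 21.7 and 26.9 CPM in KO. These also overlapped, with an estimate of -0.03 on the log2 scale (SE 0.15, adjusted p = 0.948). Of the 6954 exon bases of Kdm6b, 286 (4.11%) are shared with the antisense gene Kdm6bos, and the count command names no strand option, so reads there cannot be assigned to either gene.

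Uty, the Y-linked relative of Kdm6a, stood at 7.57, 5.71 and 5.12 CPM in WT and at 11.6, 11.9, 12.6 and 12.6 CPM in KO. Every KO library was above every WT library, and Uty rose by 0.99 on the log2 scale (SE 0.16, adjusted p = 0.001). The other 3 Y-linked genes followed, Ddx3y with 0.86 (adjusted p = 0.000748), Eif2s3y with 0.63 (adjusted p = 0.000871) and Kdm5d with 0.61 (adjusted p = 0.00231). Xist, made from the inactive X chromosome, was counted in every GC library, at 396.7 to 493.2 CPM in WT and 269 to 456 CPM in KO (log2 -0.27, adjusted p = 0.516). None of the X-linked genes Kdm6a, Kdm5c, Ddx3x and Eif2s3x, which escape X inactivation, passed the test, and 0 of the 4 had an unadjusted p under 0.05. Their log2 fold changes were 0.05, -0.03, 0.03 and 0.11. Xist and Y-linked RNA were thus counted together in each GC library. Their part in the values of Kdm6a and the other 8 genes was not tested.

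Hdac3 and Kdm1a, of the opposing complexes, had the smallest standard errors of the 9 genes in GC B cells. Hdac3 stood at 156, 144 and 138 CPM in WT and at 155, 142, 144 and 137 CPM in KO. The groups overlapped, with an estimate of -0.02 on the log2 scale (SE 0.08, adjusted p = 0.947). Ncor1, the corepressor that activates HDAC3, stood at 226, 267 and 212 CPM in WT and at 195, 281, 255 and 246 CPM in KO. Its groups overlapped too, with an estimate of 0.06 on the log2 scale (SE 0.12, adjusted p = 0.852). Kdm1a stood at 141, 137 and 133 CPM in WT and at 154, 146, 142 and 136 CPM in KO. The highest 3 values were KO libraries, but KO replicate 5 lay within the WT range, with an estimate of 0.08 on the log2 scale (SE 0.08, adjusted p = 0.659).

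The median log2 fold change of the 9 genes was 0.08, beside 0.01 over all genes tested. Myeloid markers moved with the KO label: all 11 tested had a negative estimate and 9 were called lower, beside 4.57% of all genes. The 12 myeloid markers in the tables summed to 83.9 to 94.9 CPM in WT and 49.7 to 51.9 CPM in KO on the common scale, with none at 0. Their part in the values of the 9 genes was not tested, and fewer cells of a type and less RNA per cell cannot be told apart in these bulk samples. Of the other marker lists, the 7 tested GC B-cell genes held 0 called between KO and WT (0 with an unadjusted p under 0.05), the 7 B-cell genes 0 (1), the 6 plasma cell genes 0 (2), the 6 T-cell genes 1 higher (Thy1), the 4 NK-cell genes 1 lower (Prf1), the 3 erythroid genes 0 (0) and the 4 stromal or endothelial genes 0 (2).

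For the acetylases and methylases the SD over the KO libraries was larger than over the WT libraries. It was 18.1 against 1.58 CPM for Crebbp, 48.7 against 11.8 for Ep300, 82.2 against 12.4 for Kmt2d and 25.1 against 12.9 for Kmt2c. It was also larger for Kdm6b (5.58 against 1.45), Ncor1 (36.2 against 28.9) and Kdm1a (7.75 against 3.85). It was smaller for Kdm6a (9.59 against 13.2) and Hdac3 (7.88 against 9.13). These differences in spread were not tested. KO replicate 3 was the highest and KO replicate 2 the lowest of the 4 for the same 7 genes: Crebbp, Ep300, Kmt2d, Kmt2c, Kdm6a, Kdm6b and Ncor1. For Hdac3 and Kdm1a, KO replicate 2 was the highest. KO replicate 3 lay above the KO mean by 0.56 on the log2 scale for Kmt2d, 0.49 for Ep300, 0.48 for Kmt2c and 0.34 for Crebbp. KO replicate 2 deviated by -0.65 for Kmt2d, -0.52 for Ep300, -0.56 for Kmt2c and -0.29 for Crebbp. The median deviation of tested genes with 8 kb or more of exon was 0.12 in KO replicate 3 and -0.13 in KO replicate 2, in the same directions. The estimates moved with these libraries: without KO replicate 3, the log2 fold change was 0.11 for Kmt2d and 0.01 for Kmt2c. Without it, Crebbp stood at 0.26 and Ep300 at 0.13.

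**Figure D2:**
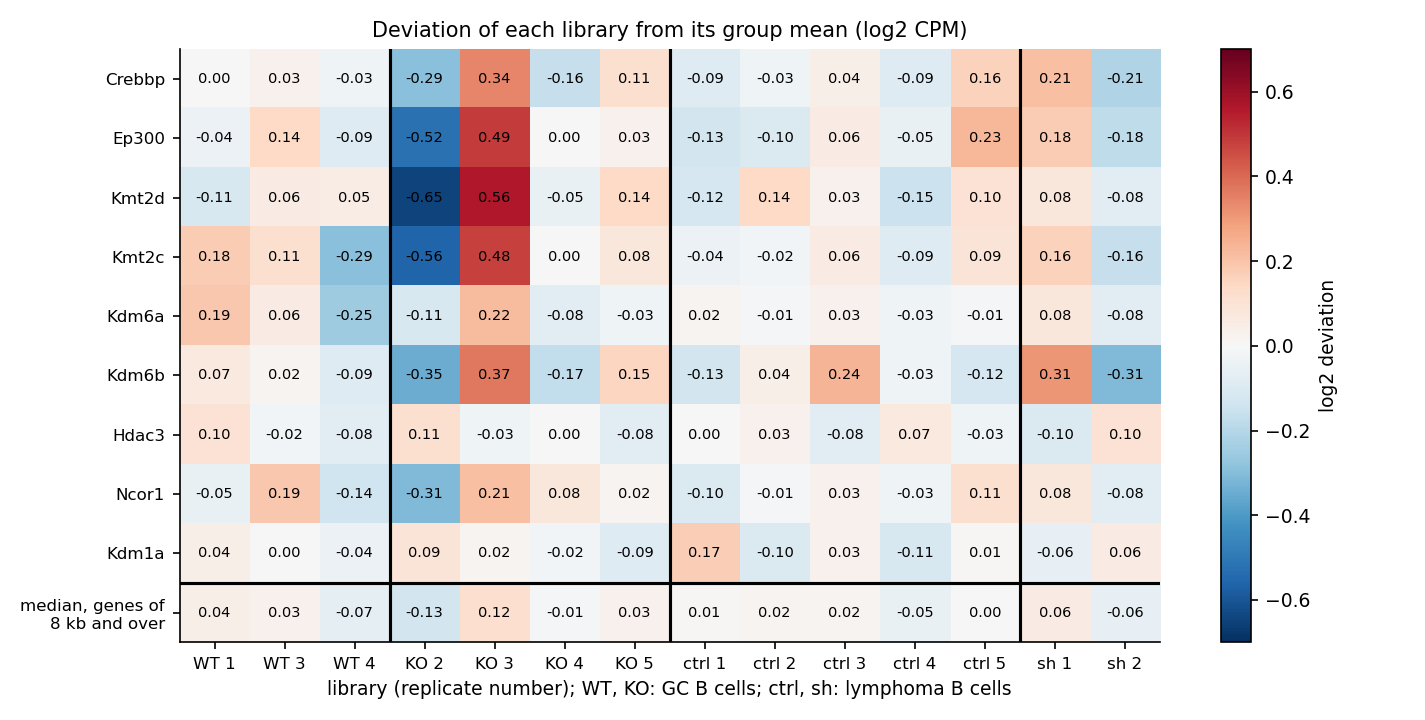
Deviation of each library from the mean of its group, in log2 CPM, for the 9 genes (rows) and for the median of all tested genes with at least 8 kb of exon (last row). Columns are libraries by replicate number, with black lines between groups. KO replicates 2 and 3 hold the deepest colours, from -0.65 to 0.56 for Kmt2d.

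Genes of the surrounding complexes passed the test in GC B cells at a share close to that of all genes. Of 107 tested genes in 10 lists, edgeR called 5, or 4.67%, beside 6.49% of all genes, and DESeq2 called 6 and limma-voom 4. Over all genes, DESeq2 called 1266 and limma-voom 793. No gene was called among 11 KMT2 family genes and shared subunits (median log2 0.06), with Kmt2b at 0.31 (adjusted p = 0.197) and Setd1a at 0.22 (adjusted p = 0.306). None was called among 13 other acetyltransferases and coactivators (median 0.03), 9 acetyl-lysine readers and Mediator subunits (0.10), 12 other lysine demethylases (0.03) or the 4 writers of lysine 27 methylation (0.04). In those 5 lists 1, 2, 1, 0 and 1 genes had an unadjusted p under 0.05, and DESeq2 and limma-voom called 0 in each. The smallest p belonged to Brpf1 (0.24, adjusted p = 0.175) and Kat2b (0.25, adjusted p = 0.252) among the coactivators, and Cdk8, a kinase of Mediator, stood at 0.15 (adjusted p = 0.461). Among the demethylases and writers it belonged to Kdm5b (-0.27, adjusted p = 0.462), Kdm5a (0.15, adjusted p = 0.503), Ezh1 (-0.22, adjusted p = 0.151) and Ezh2 (0.17, adjusted p = 0.315).

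The 5 called genes were spread over 5 lists. Hdac5, a class IIa deacetylase that binds the NCOR1 and HDAC3 complex, rose from 48.2 ± 1.88 CPM in WT (SD, n = 3) to 63.7 ± 5.09 in KO (n = 4; log2 0.40, SE 0.09, adjusted p = 0.0112), as 1 of 14 other deacetylases (median 0.05). Gfi1, a repressor that recruits KDM1A, rose from 7.33 ± 1.14 to 12.1 ± 1.74 CPM (log2 0.73, SE 0.16, adjusted p = 0.0105), as 1 of 11 partners of KDM1A (median -0.03). Bcor, a corepressor that binds BCL6, fell from 177 ± 31.3 to 131 ± 14.7 CPM (log2 -0.44, SE 0.12, adjusted p = 0.0379), as 1 of 7 tested partners and recruiters of NCOR1 (median 0.06). Dnmt3a, a DNA methyltransferase, fell from 31.3 ± 2.12 to 23.4 ± 2.35 CPM (log2 -0.42, SE 0.11, adjusted p = 0.0274), as 1 of 9 other chromatin genes of lymphoma (median 0.11). Nfkb2, a subunit of the NF-κB factors, fell from 202 ± 11.54 to 143 ± 10.4 CPM (log2 -0.50, SE 0.08, adjusted p = 0.00178). It was the only 1 that edgeR called of 17 genes known to depend on CREBBP or KMT2D, while DESeq2 called H2-DMb2 as well. Of the 17, 8 had an unadjusted p under 0.05 and 12 had a negative estimate (median -0.15). An unadjusted p under 0.05 was found for 19.9% of all genes tested and 17.8% of the genes in the 10 lists. The call of Nfkb2 held without any 1 of the 7 libraries, whereas that of Hdac5 was lost without WT replicate 1 (adjusted p = 0.0646) and that of Gfi1 without WT replicate 3 (adjusted p = 0.0575). Bcor was lost without WT replicate 1 or 3 or KO replicate 2, 3 or 5 (adjusted p up to 0.203), and in limma-voom (adjusted p = 0.0596). Dnmt3a was lost without WT replicate 3 or 4 or KO replicate 2 or 5 (adjusted p up to 0.112). With all libraries in 1 model, Gfi1 (adjusted p = 0.084) and Bcor (adjusted p = 0.055) did not pass.

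Kdm6b was the 1 gene of the 9 that changed between shTet2 and control lymphoma and passed the test. It stood at 36.4, 40.9, 46.9, 39.0 and 36.6 CPM in the 5 controls and at 25.3 and 16.3 CPM in the 2 shTet2 libraries. Both shTet2 libraries were below every control. For this and the genes below, the share of all genes with both shTet2 libraries outside the control range is not given. Kdm6b fell by 0.94 on the log2 scale (SE 0.17, adjusted p = 0.0172), where 330 of 12797 genes passed, a share of 2.58% (1.84% higher and 0.742% lower). Among the 4093 tested genes of 4 to 8 kb of exon, 0.928% had a fold change at or below that of Kdm6b, and the median of this class was -0.01. The call was lost without control replicate 2 (log2 -0.93, adjusted p = 0.0522) and the fold change ran from -1.31 without shTet2 replicate 1 to -0.66 without shTet2 replicate 2. DESeq2 and limma-voom each called Kdm6b alone of the 9, with 593 and 250 genes called in all.

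The acetylases gave negative estimates that did not pass. Crebbp stood at 220, 228, 241, 220 and 261 CPM in controls and at 231 and 173 CPM in shTet2 lymphoma. Replicate 1 of shTet2 lay within the control range and replicate 2 below it, with an estimate of -0.21 on the log2 scale (SE 0.12, adjusted p = 0.365). Ep300 stood at 228, 234, 261, 243 and 293 CPM in controls and at 260 and 201 CPM in shTet2 lymphoma. Again the first was inside the control range and the second below it, with an estimate of -0.13 on the log2 scale (SE 0.12, adjusted p = 0.608).

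Kmt2d, at 292, 352, 325, 286 and 342 CPM in controls, stood at 269 and 242 CPM in shTet2 lymphoma. Both shTet2 libraries were below all controls, with an estimate of -0.32 on the log2 scale (SE 0.11, adjusted p = 0.128). Kmt2c stood at 261, 265, 281, 253 and 285 CPM in controls and at 262 and 209 CPM in shTet2 lymphoma. One library was inside the control range and the other below it (log2 -0.19, SE 0.11, adjusted p = 0.346). Kdm6a stood at 84.7 to 88.2 CPM over the controls and at 83.8 and 75.4 CPM in shTet2 lymphoma, both below every control, with an estimate of -0.12 on the log2 scale (SE 0.09, adjusted p = 0.48). Uty, Kdm5d, Ddx3y and Eif2s3y had 0 counts in all 7 lymphoma libraries, where a limit of 3 counts corresponds to 0.156 to 0.722 CPM, while Xist stood at 1243 to 1453 CPM in controls and at 978 and 1018 CPM in shTet2 lymphoma (log2 -0.42, adjusted p = 0.0589).

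Hdac3 was the gene of the opposing complexes with the largest estimate. It stood at 12.98, 13.2, 12.3, 13.6 and 12.7 CPM in controls and at 16.3 and 18.8 CPM in shTet2 lymphoma. Both shTet2 libraries were above every control, and the log2 fold change of 0.44 (SE 0.12) did not pass (adjusted p = 0.0796). The counts behind Hdac3 were 55 to 209 in controls and 313 and 280 in shTet2. Ncor1 stood at 199 to 231 CPM in controls and at 216 and 192 CPM in shTet2 lymphoma (log2 -0.07, SE 0.09, adjusted p = 0.715), and Kdm1a at 26.9 to 32.6 CPM and at 28.0 and 30.5 CPM (log2 0.01, SE 0.11, adjusted p = 0.987). For Ncor1, replicate 1 of shTet2 was inside the control range and replicate 2 below it, and for Kdm1a both were inside it.

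The shTet2 libraries were ordered in 1 way: replicate 1 was the higher for the same 7 genes that were highest in KO replicate 3, and replicate 2 was the higher for Hdac3 and Kdm1a. The median deviation of tested genes with 8 kb or more of exon was 0.06 in shTet2 replicate 1 and -0.06 in replicate 2. Without shTet2 replicate 1, with the remaining library assumed to vary like the controls, 5 of the 9 genes were called (2481 genes in all): Crebbp at -0.44, Kmt2d at -0.41, Kmt2c at -0.38 and Kdm6b at -1.31 as lower, and Hdac3 at 0.53 as higher. Without shTet2 replicate 2, 130 genes were called. The share of ribosomal and structural RNA did not overlap between control and shTet2 libraries. Of 7 GC B-cell markers tested, 6 had a positive and 1 a negative estimate in shTet2 lymphoma (median log2 1.9), and 5 had an unadjusted p under 0.05. Called as higher were 2, Fas (log2 1.29) and S1pr2 (log2 2.73), beside 1.84% of all genes. Plasma cell markers were called higher for 2 of 6 tested, Xbp1 (log2 0.81, adjusted p = 0.008) and Prdm1 (log2 1.21, adjusted p = 0.0327). The 6 had a median of 0.69, with 5 estimates positive and 1 negative, and 4 had an unadjusted p under 0.05. Their summed level was 344.5 to 489 CPM in controls and 479.6 to 784.5 CPM in shTet2 lymphoma on the common scale, with none at 0. In the other lists edgeR called 0 of 7 B-cell genes (3 with an unadjusted p under 0.05), 0 of 10 myeloid (3), 0 of 9 T-cell (1), 0 of 4 NK-cell (0), 0 of 1 erythroid (0) and 0 of 4 stromal or endothelial genes (1). The part of these in the values of Kdm6b and the other 8 genes was not tested.

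**Figure D3:**
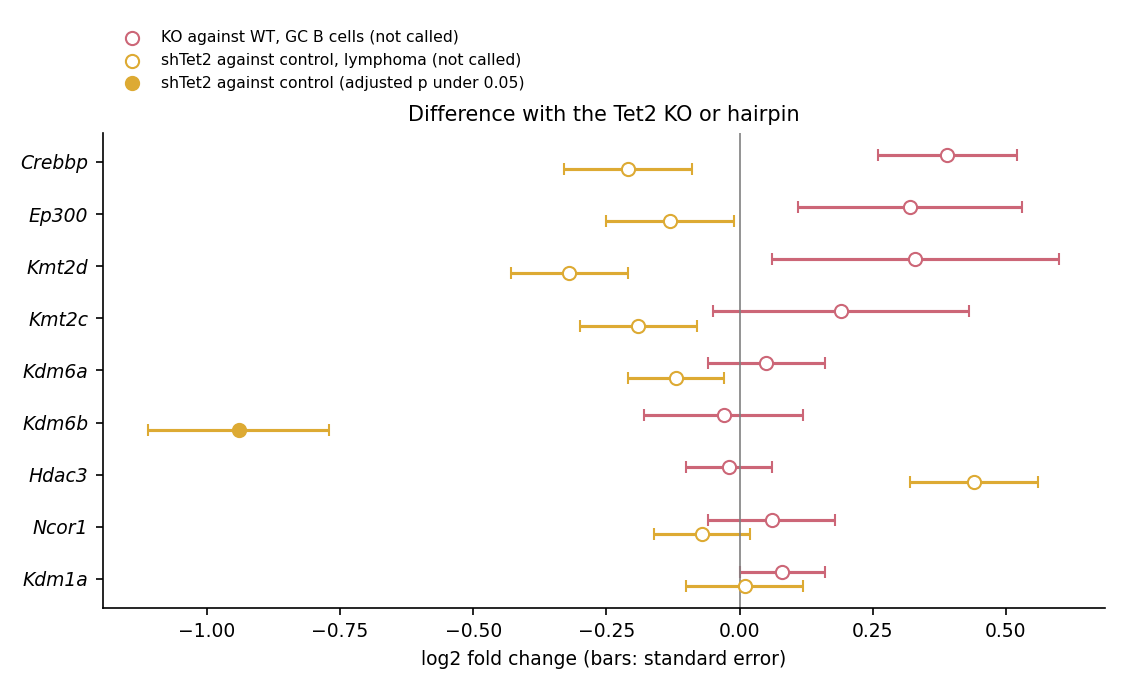
Log2 fold change of each of the 9 genes for KO against WT in GC B cells and for shTet2 against control in lymphoma B cells, with bars of 1 standard error on each side. Filled points passed an adjusted p under 0.05 and open points did not. Only Kdm6b in lymphoma, at -0.94, is filled.

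Of 106 tested genes in the same 10 lists, edgeR and limma-voom called 0 between shTet2 and control, beside 2.58% of all genes in edgeR. An unadjusted p under 0.05 was found for 28 of them, or 26.4%, beside 19.1% of all genes. DESeq2 called 6 of them, among these Ezh2, Jmjd1c, Kat6b, Setd1b and Suz12, beside 593 genes called in all. The smallest adjusted p values were those of the acetyltransferase Kat6b (log2 -0.50, adjusted p = 0.0525), the lysine 27 methylation subunit Suz12 (0.42, adjusted p = 0.062), the KMT2 subunit Dpy30 (0.75, adjusted p = 0.079) and the demethylase family gene Jmjd1c (-0.41, adjusted p = 0.0851). Median log2 fold changes were -0.04 for the KMT2 family and shared subunits, -0.08 for other acetyltransferases and coactivators, -0.11 for readers and Mediator, 0.04 for other deacetylases, -0.03 for partners of NCOR1 and -0.14 for partners of KDM1A. They were -0.15 for other demethylases, 0.33 for writers of lysine 27 methylation, -0.12 for other lymphoma genes and -0.13 for genes known to depend on CREBBP or KMT2D, beside 0.00 over all genes tested. The others with the smallest p of their lists included the acetyltransferase Kat6a (-0.37, adjusted p = 0.119), the methylase Setd1b (-0.74, adjusted p = 0.118) and the deacetylase Hdac1 (0.43, adjusted p = 0.124). Those of other lists included Kdm1b (0.44, adjusted p = 0.131), Ezh2 (0.79, adjusted p = 0.165), Arid1a (-0.38, adjusted p = 0.178) and Tnfaip3 (-0.43, adjusted p = 0.122).

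The difference between the 2 Tet2 effects was tested in 1 model of all 14 libraries as the KO effect in GC B cells minus the shTet2 effect in lymphoma. Kdm6b passed, with a difference of 0.94 on the log2 scale (SE 0.24, adjusted p = 0.0322), where 771 of 15441 genes passed, a share of 4.99% (1.61% higher and 3.39% lower). The difference was not called without shTet2 replicate 2 (0.70, adjusted p = 0.194), and it was also lost without WT replicate 1, 3 or 4, KO replicate 5 or control replicate 2 or 3, at adjusted p values of 0.0502 to 0.0698. Crebbp had a difference of 0.63 (SE 0.19, adjusted p = 0.063) and Hdac3 one of -0.42 (SE 0.13, adjusted p = 0.0685). Those of Kmt2d (0.68, adjusted p = 0.208), Ep300 (0.48, adjusted p = 0.332), Kmt2c (0.42, adjusted p = 0.426), Kdm6a (0.20, adjusted p = 0.511), Ncor1 (0.16, adjusted p = 0.649) and Kdm1a (0.11, adjusted p = 0.71) did not pass either. DESeq2 called 3 of the 9, Crebbp, Hdac3 and Kdm6b, and limma-voom called 0. Over all genes, DESeq2 called 1198 and limma-voom 536. Without KO replicate 2, edgeR called 4, and without shTet2 replicate 1 it called 3.

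All 9 genes differed between control lymphoma and WT GC B cells. The enhancer acetylases and methylases, the demethylases and Ncor1 were higher in lymphoma, and Hdac3 and Kdm1a were lower. The 9 genes passed edgeR's test, 7 higher and 2 lower (the largest adjusted p, that of Kmt2d, was 3.1e-07), in a comparison where 12456 of 15441 genes, or 80.7%, passed (40.2% higher and 40.4% lower), so a pass is common to most genes here. The 2 cell types came in separate tables with separate sets of libraries, and cell type and library set cannot be told apart.

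On the common scale, Crebbp had means of 43.9 ± 1.25 CPM in WT GC B cells (SD, n = 3) and 361 ± 28.4 CPM in control lymphoma (SD, n = 5), a log2 difference of 3.04 (SE 0.14). Kmt2c had the largest difference, 3.09 (SE 0.20), from 48.8 ± 8.28 to 416 ± 22.8 CPM. No library of the one group reached into the range of the other for either gene. Ep300 went from 87.9 ± 7.97 to 389 ± 43.0 CPM (log2 2.15, SE 0.18) and Kmt2d from 125 ± 8.14 to 494 ± 43.0 CPM (log2 1.99, SE 0.20). The demethylase Kdm6b went from 16.0 ± 0.953 to 61.7 ± 6.59 CPM (log2 1.95, SE 0.16) and Kdm6a from 54.4 ± 8.43 to 134 ± 2.87 CPM (log2 1.30, SE 0.10). Ncor1 was the 1 gene of the opposing complexes that was higher, at 148 ± 19.1 against 330 ± 19.2 CPM (log2 1.16, SE 0.11). Hdac3 fell from 92.2 ± 5.76 to 20 ± 0.720 CPM, a log2 difference of -2.21 (SE 0.08), and Kdm1a from 86.5 ± 2.62 to 44.9 ± 3.86 CPM, a log2 difference of -0.94 (SE 0.08). For each of the 9 genes the control lymphoma values lay apart from the WT values, as the plot of levels by library shows. The share of all genes that lay apart in this way is not given, and 80.7% of all genes passed the test.

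The comparison moved with gene length over all genes. The median log2 difference was -0.23 for tested genes under 2 kb of exon, -0.41 from 2 to 4 kb, 0.13 from 4 to 8 kb and 0.96 at 8 kb or more, and 69.9% of the 1440 longest genes passed as higher. Of the 9 genes, 6 have 8 kb or more of exon: Crebbp, Ep300, Kmt2d, Kmt2c, Kdm6a and Ncor1. In that class 10.8% of genes had a difference at or above that of Kmt2c, close to the share for Crebbp, 21.0% for Ep300, 23.9% for Kmt2d, 39.2% for Kdm6a and 44.0% for Ncor1. Among genes of 4 to 8 kb, 13.4% were at or above Kdm6b, while 5.25% were at or below Hdac3 and 19.1% at or below Kdm1a. The part of gene length, and of the ribosomal and structural RNA share, in the differences of the 9 genes was not tested.

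**Figure D4:**
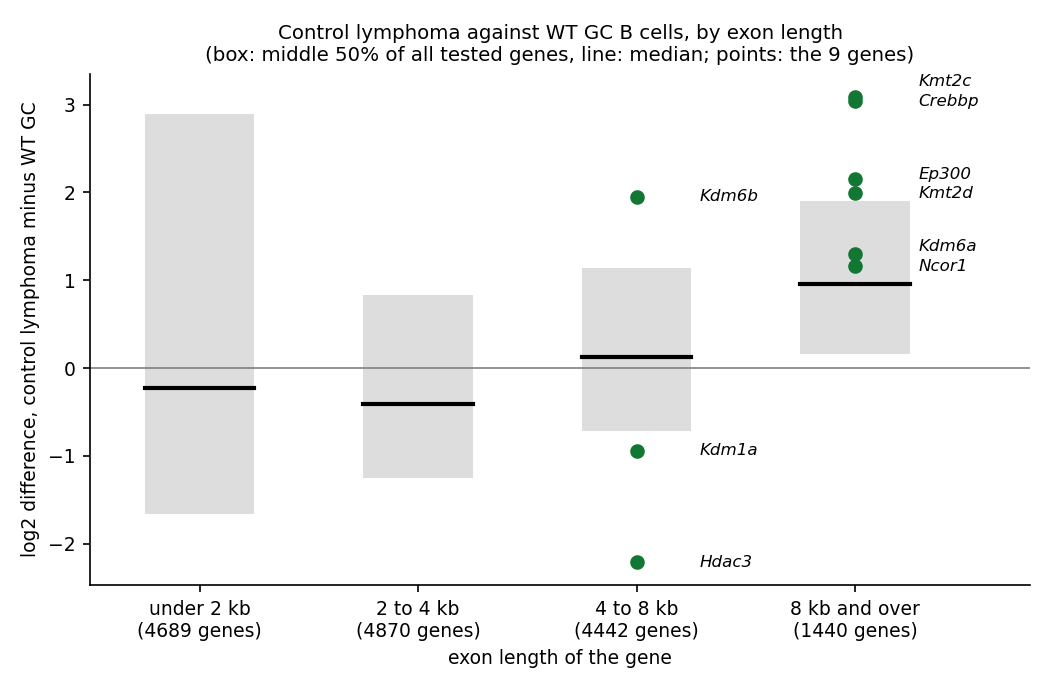
Log2 difference between control lymphoma and WT GC B cells by exon length of the gene, with grey boxes for the middle 50% of all tested genes in a class, black lines for their medians and green points for the 9 genes. The median of the longest class is 0.96. Crebbp, Kmt2c, Ep300 and Kmt2d lie above the box of their class, Kdm6a and Ncor1 within it, Kdm6b above its box, and Hdac3 and Kdm1a below theirs.

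Ratios of 2 genes within a library, taken per length, do not depend on the scaling of the library. Taking them per length does not remove the move of the lymphoma comparison with exon length given above. Crebbp and Kmt2d have more exon than Hdac3 and Kdm1a, and the part of length in the ratios was not tested. Crebbp stood at 0.149 ± 0.00867 of Hdac3 in WT GC B cells (SD, n = 3) and at 0.198 ± 0.0465 in KO (n = 4), against 5.64 ± 0.583 in control (n = 5) and 3.64 ± 1.09 in shTet2 lymphoma (n = 2). The highest GC library was at 0.251 and the lowest lymphoma library at 2.88. Kmt2d stood at 0.377 ± 0.0325 of Kdm1a in WT and 0.451 ± 0.155 in KO, and at 2.89 ± 0.390 in control and 2.29 ± 0.312 in shTet2 lymphoma. The paralogs came closer to one another: Crebbp was at 0.539 ± 0.0327 of Ep300 in WT and at 1.001 ± 0.0395 in control lymphoma, and Kmt2d was at 2.68 ± 0.600 and 1.22 ± 0.0852 times the level of Kmt2c. Hdac3 stood at 1.997 ± 0.254 times the level of Ncor1 in WT and at 0.193 ± 0.0152 in control lymphoma. The ratio of Kdm6a to Kdm6b was 1.61 to 2.07 in controls and 2.83 and 3.95 in shTet2 lymphoma, where it lay in or above the range of 2.58 to 3.14 in WT GC B cells.

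Of 14 other deacetylases, 9 were called lower and 4 higher in control lymphoma (median log2 -1.02, beside -0.03 over all genes tested), with Hdac1 (-1.83), Hdac7 (-1.55) and Hdac6 (-2.11) among the lower. Of all genes tested, 40.4% were called lower and 40.2% higher. The part of exon length in the counts of this and the following lists was not tested. Other lysine demethylases were called higher in 11 of 12 and lower in 1 (median 0.70), led by Kdm5b (3.84), Jmjd1c (2.29) and Kdm5a (1.77). Of 4 lysine 27 methylation writers 3 were lower and 1 higher (median -1.31), with Ezh2 at -2.84, Eed at -1.57 and Ezh1 at 1.31. The KMT2 family and shared subunits split into 3 higher and 5 lower of 11 (median -0.12), with the subunits Paxip1 at -2.17 and Dpy30 at -2.60 among the lower. Other acetyltransferases and coactivators split into 7 higher and 5 lower of 13 (median 0.30), with Kat6b at 2.66, Kat6a at 1.91 and Ncoa2 at 1.60 among the higher. Readers and Mediator gave 5 higher and 3 lower of 9 (median 0.30), with Med13 at 2.63, Med1 at 1.24 and Brd9 at -1.51.

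Partners of NCOR1 gave 3 higher and 2 lower of 7 tested (median 0.11), with Tbl1xr1 at 1.19, Gps2 at -1.55 and Bcl6 at -0.58. Partners of KDM1A gave 3 higher and 5 lower of 11 (median -0.05), with Zmym2 at 134 CPM against 33.4 CPM, Phf21a at 1.34 and Hmg20b at -2.51. Other chromatin genes of lymphoma gave 6 higher and 3 lower of 9 tested (median 1.43), with the linker histone Hist1h1c at 3.46, Smarca4 at -1.42 and Smarcb1 at -1.30. Genes known to depend on CREBBP or KMT2D in B cells gave 8 higher and 6 lower of 17 (median 0.15), with Irf4 at 1.75, Tnfaip3 at 1.29 and Socs3 at 3.01. Each of these was called by edgeR, as were 93 of 107 genes over the 10 lists, a share of 86.9% beside 80.7% of all genes. The 4 X-linked genes were all called higher, beside 40.2% of all genes: Kdm6a at 1.30, Ddx3x at 0.87, Kdm5c at 0.60 and Eif2s3x at 0.59. Xist was higher too (log2 2.91), and the 4 Y-linked genes, with 0 counts in lymphoma, were called lower. Cell type and this difference in X- and Y-linked RNA cannot be told apart. Its part in the value of Kdm6a was not tested.

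Markers of other cell types differed between control lymphoma and WT GC B cells too. The 7 tested GC B-cell markers were all lower. Of the 10 T-cell markers 9 were higher and 1 was lower (median log2 2.68), and their summed level was 4.47 to 7.27 CPM in WT and 9.76 to 34.7 CPM in control lymphoma on the common scale. All 6 NK-cell markers were higher (median 2.80), at a summed 1.56 to 2.19 CPM in WT and 8.04 to 10.15 CPM in control lymphoma. Of the 4 tested stromal or endothelial markers 3 were higher, Cr2, Pecam1 and Fcer2a, with a summed level of the list of 393.7 to 486.7 CPM in WT and 1192 to 1429 CPM in control lymphoma. Cr2 and Fcer2a are also made by B cells. Of 12 myeloid markers 3 were higher, Lyz2, Mpeg1 and Itgam, at 83.9 to 94.9 CPM and 156 to 271 CPM for the list. Plasma cell markers gave 1 higher and 4 lower of 6, erythroid markers 1 higher and 2 lower of 4 and B-cell markers 2 higher and 4 lower of 7. No T-cell, NK-cell, myeloid, plasma cell or B-cell marker was at 0 in either group, and the stromal Col1a1 was at 0 in WT. The part of these cell types in the differences of the 9 genes was not tested.

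The genes whose profile over the 14 libraries was nearest to each of the 9 were sought among 8735 genes with a mean of at least 5 CPM, by the mean absolute difference of log2 CPM after centring each gene. For Crebbp the nearest were Itpr1 at 0.087 and Lrrk2 at 0.099, for Ep300 Ash1l and Heg1, both at 0.112, for Kmt2d Ino80d at 0.114 and Tnrc6c at 0.116, and for Kmt2c Itga4 at 0.105 and Lyst at 0.112. For Kdm6a they were Epc2 and Smchd1, both at 0.064, for Ncor1 Heatr5b at 0.059 and Zzef1 at 0.060, and for Kdm6b Iqsec1 at 0.148 and Stk10 at 0.162. Hdac3 was nearest to Anapc5 at 0.065 and Psmc4 at 0.073, and Kdm1a to Tiprl at 0.050 and Ndufs1 at 0.058. Within the 9, Crebbp and Kmt2c were nearest to each other at 0.139, Ep300 and Kmt2d at 0.135, and Kdm6a and Ncor1 at 0.117. Kdm6b was nearest to Kmt2d at 0.239, and Hdac3 and Kdm1a, at 0.539 from each other, were not near any of the 9.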

How the data were processed

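Total RNA of spleen cells was extracted (Trizol, RNeasy) and made into stranded TruSeq mRNA libraries, per the labels. The submitters' processing notes name STAR 2.3.0e and the build GRCm38.p3. The authors deposited unscaled counts per gene name, made with featureCounts 1.5.1 over GENCODE exons with no strand option, per the file headers. By that command's defaults, reads overlapping several genes are not counted.

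All 14 libraries were grouped by title, and replicates differed by more than counting noise in every pair. GC B-cell totals were at least 27191862 counts and lymphoma totals at least 6691167, so the lymphoma values rest on fewer reads. Tests used edgeR 4.0.16 in R 4.3.3: TMM scaling, filterByExpr, quasi-likelihood fits with the robust option and Benjamini-Hochberg adjusted p-values over all genes tested, with adjusted p under 0.05 as the threshold. KO against WT and shTet2 against control were fitted within their tables. The difference between these effects and control lymphoma against WT came from 1 model of all libraries. Log2 CPM used a prior count of 2. Scripts were tested on simulated data with known changes. Of the calls made there, 9.41% were false between shTet2 and control and 1.9 to 4.46% in the other comparisons. Alternatives were median-of-ratios scaling, DESeq2 1.42.0, limma 3.58.1 (voom), other filters, leaving out the ribosomal and structural RNA rows, all libraries in 1 model, only the 2 groups compared, a replicate block and leaving out each replicate.

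The 9 members, the 10 chromatin lists, the X-linked and Y-linked lists and the cell type markers were chosen with earlier results of these data known. Named genes were the 9 members, the called genes of each list (at most 3, by p) or the 2 with the smallest p where none passed, and the 2 genes nearest in profile to each member, with some left out for length and some not reported here.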

Additional observations from a re-analysis of the deposited data

Results flagged for a closer look

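The test of the difference between the KO effect in GC B cells and the shTet2 effect in lymphoma passed in edgeR for Kdm6b, a demethylase of lysine 27 of histone H3. The KO effect minus the shTet2 effect was 0.94 on the log2 scale (edgeR, SE 0.24, adjusted p = 0.0322). The call was not made by limma-voom (adjusted p = 0.0507), and it was lost without WT replicate 1, 3 or 4, KO replicate 5, control replicate 2 or 3, or shTet2 replicate 2 (adjusted p up to 0.194). Cell type, the use of a knockout or a hairpin, and the table cannot be told apart here. Within the tables Kdm6b stood at 25.3 ± 1.45 CPM in WT (SD, n = 3) and 24.8 ± 5.58 CPM in KO (n = 4), and at 39.95 ± 4.30 CPM in control (n = 5) and 20.8 ± 6.37 CPM in shTet2 lymphoma (n = 2). It was lower in 2 of 2 shTet2 libraries than in every control. Of 18 tests for a library that stands apart in its group, on the 9 genes in the groups of 4 and 5 libraries, 0 passed, where chance passes about 1 in 20.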

How the results depend on the processing

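Between control lymphoma and WT GC B cells, the 126 values of the 9 genes with 1 library left out and the 72 under other alternatives kept direction and call, with 11710 to 13285 genes called when 1 library was left out and 12212 with the replicate block. Between KO and WT, genes called went from 883 to 1266 in DESeq2, 1365 with no filter and 570 with the replicate block. They ran from 607 to 944 when 1 library was left out. Of the 9 genes, DESeq2 called 1, no filter 1 and the replicate block 4, and leaving out 1 library 0 to 3. Estimates near 0 changed sign: Kdm6b to 0.02 with all libraries in 1 model and 0.09 with the block (-0.17 to 0.08 with 1 library left out), Hdac3 to 0.04 and 0.02 (-0.06 to 0.03), Kdm6a (-0.07 to 0.15) and Ncor1 (-0.02 to 0.16). Between shTet2 and control, genes called went from 330 to 593 in DESeq2, 782 with no filter, 840 with all libraries in 1 model and 4 with the block, and from 100 to 2481 with 1 library left out. Of the 9 genes, 2 were called with all libraries in 1 model, 0 with the block and 0 to 5 with 1 library left out. Signs changed for Kdm1a (-0.03 with the block, -0.06 to 0.06), Ep300 (-0.33 to 0.04) and Ncor1 (-0.17 to 0.01) with 1 library left out. For the difference between the effects, DESeq2 called 1198 genes in place of 771 and 3 of the 9 genes, no filter 2, limma-voom 0, and leaving out 1 library 283 to 2001 genes and 0 to 4 of the 9. The cause of these changes was not tested. The block and each left-out library also reduce the samples or degrees of freedom, and calls rose in some of these fits and fell in others.

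No pairing by replicate number was seen: deviations of same-numbered libraries correlated at -0.06 to 0.03 over 15441 genes. Within a table only replicates 3 and 4 (GC) or 1 and 2 (lymphoma) share a number, so these correlations cannot exclude a shared animal or day. With the block, Kdm6b had an adjusted p of 0.264 in lymphoma (log2 -0.91) and Crebbp one of 0.0347 in GC B cells (log2 0.46). Of the 5 list genes called between KO and WT, 3 did not pass with the block: Hdac5 (adjusted p = 0.074), Bcor (adjusted p = 0.304) and Dnmt3a (adjusted p = 0.198). No block was fitted for the difference between the effects. Hdac3 had the fewest counts of the 9 genes, 55 in the shallowest control.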

Other observations

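Of 107 tested genes in the 10 chromatin lists, 3 passed the test of the difference between the KO effect in GC B cells and the shTet2 effect in lymphoma (edgeR, adjusted p under 0.05), beside 4.99% of all genes. Among them are Hdac9 and Dpy30, named here after their values were seen. Hdac9, a class IIa deacetylase, had a difference of 0.91 (SE 0.24, adjusted p = 0.0377), with 59.1 ± 5.27 and 72.2 ± 9.07 CPM in WT and KO, and 32.9 ± 2.68 and 21.8 ± 9.67 CPM in control and shTet2 lymphoma. Dpy30, a subunit shared by the KMT2 complexes, had a difference of -0.82 (SE 0.22, adjusted p = 0.0355), with 70.2 ± 7.63 and 65.5 ± 9.08 CPM in WT and KO, and 4.79 ± 0.633 and 7.99 ± 2.16 CPM in control and shTet2 lymphoma. Neither single effect passed for these genes, with adjusted p values in GC B cells and lymphoma of 0.687 and 0.079 for Dpy30 and of 0.13 and 0.177 for Hdac9. DESeq2 called 11 of the 107 genes, both of these among them, and limma-voom 2, with Hdac9 (adjusted p = 0.0391) and without Dpy30 (adjusted p = 0.148). Over all genes, DESeq2 called 1198 and limma-voom 536. With 1 library left out, the call of Hdac9 was lost in 11 of 14 fits, all but those without KO replicate 2, control replicate 4 or shTet2 replicate 1, and with no filter (adjusted p = 0.0586). That of Dpy30 was lost in 8 of 14, those without WT replicate 3 or 4, KO replicate 3 or 5, control replicate 1, 3 or 4, or shTet2 replicate 2. The highest adjusted p, without shTet2 replicate 2, was 0.168 for Hdac9 and 0.386 for Dpy30.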
